A study of Drosophila melanogaster with 4 samples.

Results

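The comparison described here is that of trisomy 2L females with normal females of Drosophila melanogaster, 2 of the 4 groups of the series. The trisomic larvae carried 3 copies of the left arm of chromosome 2 (2L) and the normal larvae carried 2. Both groups were third-instar larvae from stocks kept at 25 degrees. The labels name no dissected tissue, and total RNA was isolated with TRIZOL and sequenced from TruSeq libraries. The series' design text names the diploids as Cantons, and neither the strain background of the trisomics nor how the trisomy was made is given in the labels, so karyotype and strain cannot be told apart. The labels name 4 biological replicates per group, 16 in all, but the deposited values are 1 mean per group in counts per 1000000 (CPM). No spread between replicates was available and library depth is not known, so every difference below is a difference of 2 group means, with no error and no test. Of 14161 genes, 6308 averaged 10 CPM or more across the 4 groups of the series and were compared. The CPM of a gene is the mean over its transcript models. Changes are given as log2 of trisomic over normal female CPM, with a pseudocount of 1 added to each. This understates the change of low genes.

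An extra chromosome arm changes the dose of its own genes directly, and can also change the level of genes elsewhere through regulators encoded on that arm. A third-instar larva is mostly feeding tissue and stores. Its fat body secretes storage proteins into the haemolymph, its midgut secretes proteases and glycosidases, and its salivary glands make glue proteins late in the instar. Total larval RNA therefore sums many tissues, and fewer cells of a type and less RNA per cell cannot be told apart.

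Markers of larval fat body, salivary gland, muscle, haemocytes and midgut were present, and most of these sets differed in their summed level. The 6 glue genes that mark the salivary gland summed to 4898 CPM in trisomic females and 16662 CPM in normal females, and none of them was higher in trisomics. The 8 muscle markers summed to 6626 CPM in trisomic females and 4394 CPM in normal females, with 8 of 8 higher. Of these, Mlc2, wupA and Tm1 differed by only 0.04, 0.07 and 0.20 on the log2 scale, and Mhc, on 2L, by 2.02. Haemocyte markers (7 found of 8 listed) summed to 983 CPM in trisomic females and 405 CPM in normal females, with 6 higher. Midgut markers (6 found of 7) summed to 3829 CPM in trisomic females and 2222 CPM in normal females, with 4 higher and alphaTry and betaTry lower. Most of the midgut sum came from Jon25Biii (2881 CPM in trisomic and 1283 CPM in normal females) and Jon25Bi (573 and 155 CPM), both on 2L. Off 2L, Amy-p and Amy-d were higher, whereas betaTry stood at 303 CPM in trisomic and 703 CPM in normal females. Fat body markers summed to 73537 CPM in trisomic females and 63093 CPM in normal females, with 5 of 6 higher. Of these, Lsp1beta (23835 CPM in trisomic and 14926 CPM in normal females) and Fbp2 lie on 2L, and Lsp2, on 3L, was lower. None of the 6 testis and none of the 6 ovary markers averaged 10 CPM in females. The part these shifts had in the differences of other genes was not tested.

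Of the 6308 genes, 968 (15.3%) lay at least 1.5-fold higher in trisomic females, and 1154 (18.3%) lay lower by that factor or more. At 2-fold the order turned: 342 genes (5.42%) were higher and 187 (2.96%) were lower. CPM are shares of a total, and the median change was -0.06 over all genes and -0.20 over the 4069 genes on 2R, 3L and 3R. Relative to the median of those 3 arms, the 1.5-fold counts were 1407 higher (22.3%) and 474 lower (7.51%), and the 2-fold counts 566 higher (8.97%) and 101 lower (1.6%). Of the genes compared, 361 lay at or under the commonest low value in both female groups (2.81 CPM in trisomic and 2.22 CPM in normal females) and passed the minimum through their male levels. No change can be read for these.

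The large differences ran in the same direction in males, which are separate libraries of both karyotypes. Of the 968 genes higher in trisomic females, 945 (97.6%) were also higher in trisomic than in normal males and 782 were at least 1.5-fold higher there. Of the 1154 lower genes, 1131 (98%) were lower in trisomic males and 960 at least 1.5-fold lower. Over all genes compared, 40.6% were higher and 59.4% lower in trisomic males. All 187 genes at least 2-fold lower in trisomic females were lower in trisomic males. Whether the karyotypes also differ in strain is not given for either sex.

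In CPM averaged over the transcript models of each gene, secreted proteins led both the gains and the losses. Genes with many models can rank lower on such means than on sums over models. Mhc, with 16 models, had a mean of 1066 CPM in trisomic and 263 CPM in normal females. Fbp1 had 2 models, and Lsp1beta and Lsp1alpha had 1 each. A ranking by sums over models was not made. Genes that were higher in trisomic females gained 80426 CPM between them (2926 genes) and the 10 largest gains made up 28.7% of this. Genes that were lower decreased by 113572 CPM between them (3382 genes), of which the 10 largest made up 26%. These sums are over means per gene and leave out genes under the minimum. They therefore need not balance, although each column totals 1000000 over all models, and they show no net loss. On these means the 2 largest gains were those of the storage hexamerins Lsp1beta, on 2L, and Lsp1alpha, on X. Lsp1beta stood at 23835 CPM in trisomic females against 14926 CPM in normal females. Lsp1alpha stood at 6528 CPM in trisomic and 2111 CPM in normal females. Together they made up 16.6% of the summed gains above. The remaining Lsp1 subunit gene, Lsp1gamma on 3L, stood at 12790 CPM in trisomic females and 11507 CPM in normal females (0.15), so the 3 subunits of this protein family differed in their changes (1.63 for Lsp1alpha, 0.68 for Lsp1beta). The hexamerin Lsp2, on 3L, went the other way, with 10577 CPM in trisomic females and 18488 CPM in normal females. This was the largest loss of any gene compared on these means.

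Other gains came from Fbp1, a receptor for hexamerin uptake by the fat body (15894 CPM in trisomic and 13064 CPM in normal females), and from the gut serine protease Jon25Biii (2881 CPM in trisomic and 1283 CPM in normal females). The alcohol dehydrogenase gene Adh, on 2L, stood at 961 CPM in trisomic females and 242 CPM in normal females. Its log2 change of 1.99 was larger than the increase from 2 copies to 3. It overlaps its neighbour Adhr, and the counting may divide their reads. Losses were those of glue proteins (Sgs3, Sgs4, Sgs5 and Sgs7), of the cuticle protein Lcp1 (1675 CPM in trisomic and 4148 CPM in normal females) and of digestive proteases. Among the proteases yip7 stood at 1071 CPM in trisomic females and 3967 CPM in normal females, Jon65Aiii at 1160 CPM in trisomic and 3088 CPM in normal females, and epsilonTry at 396 CPM in trisomic and 2106 CPM in normal females. Proteases of the gut thus stood among the 10 largest gains and among the 10 largest losses. The plot of gains and losses shows these genes side by side.

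**Figure D1:**
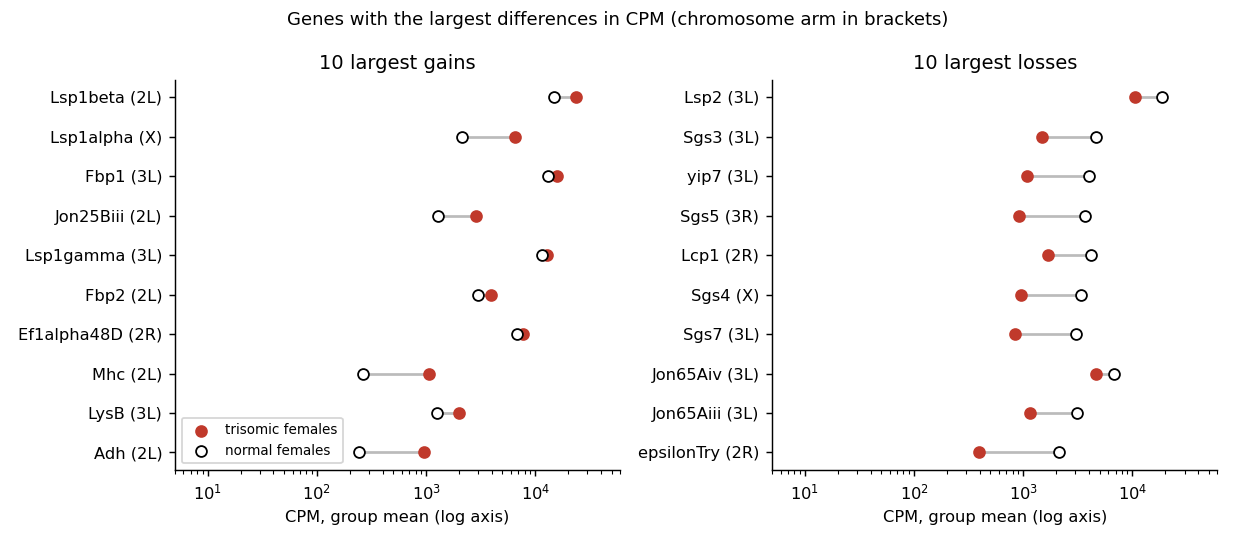
Group means of CPM (log axis), averaged over the transcript models of each gene, for the 10 genes with the largest gains and the 10 with the largest losses. Filled points are trisomic females and open points normal females. Lsp1beta and Lsp1alpha gained most, and Lsp2 and Sgs3 lost most.

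In proportion, the largest change of all was that of CG3819 on 3L, with 212 CPM in trisomic females and 3.32 CPM in normal females (5.63). Of the 12 largest increases, 3 lay on 2L (CG9463, CG12506 and CG15404). CG9463, which RefSeq names LManIII, a lysosomal alpha-mannosidase gene, stood at 151 CPM in trisomic females and 5.44 CPM in normal females. On X the largest was CG32603, with 296 CPM in trisomic females and 26.4 CPM in normal females (3.44). On 2R the leading genes were CG8693 (Mal-A4, a maltase gene, 44.7 CPM in trisomic and 3.75 CPM in normal females) and the antimicrobial peptide gene Dpt (70.5 CPM in trisomic and 6.78 CPM in normal females). Chromosome 4 had no change of that size, and its largest increase was CG32017 at 43.5 CPM in trisomic females and 17.4 CPM in normal females (1.28).

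Of the 12 largest decreases, 1 lay on 2L. It was Cyp4e3, a cytochrome P450 gene, at 8.80 CPM in trisomic females against 50.3 CPM in normal females (-2.39). Another P450 gene of 2L, Cyp28a5, stood at 99.4 CPM in trisomic and 307 CPM in normal females (-1.62), and Cyp6a23 on 2R stood at 114 CPM in trisomic and 456 CPM in normal females (-2.0). In males these 3 decreases were -0.91, -0.42 and -0.80, each smaller in size than in females, a difference that was not tested. The copper transporter gene Ctr1B stood at 65.3 CPM in trisomic females and 297 CPM in normal females (-2.17). On X the largest decrease was CG8661 (193 CPM in trisomic and 736 CPM in normal females).

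The change of a gene varied with the length of its transcripts. For the 6201 genes (98.3%) with a length in a reference annotation, the median transcript length of the gene was used. On 2R, 3L and 3R together, the median log2 change was -0.49 for transcripts under 750 bases (314 genes), -0.55 at 750 to 1000 (314), -0.39 at 1000 to 1500 (723), -0.30 at 1500 to 2000 (704), -0.15 at 2000 to 3000 (868), 0.09 at 3000 to 5000 (744) and 0.23 over 5000 bases (337). Of genes with transcripts of over 5000 bases, 22% were higher by 1.5-fold or more and 3.56% were lower by as much, whereas under 750 bases these shares were 11.5% and 41.7%. The median level of the classes, over both female groups, lay between 21.7 and 29.6 CPM. Across the 4004 genes of those arms the Spearman correlation of change with length was 0.36, and it was 0.38 on 2L (1248 genes) and 0.41 on X (859 genes). Genes share the same 2 group means, so these are descriptions of this pair of groups.

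The same gradient in males was shallower, with medians of -0.52 under 750 and -0.04 over 5000 bases. Further ratios locate it among the groups. Normal males over normal females had medians of -0.07 under 750 bases and 0.24 over 5000 bases, so the normal female means were low in long transcripts relative to normal males. Trisomic males over trisomic females showed no such trend, with class medians between 0.03 and 0.10. Relative to short transcripts, long ones were thus lowest in normal females and intermediate in normal males, and whether this lies in the larvae or in the libraries was not tested.

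**Figure D2:**
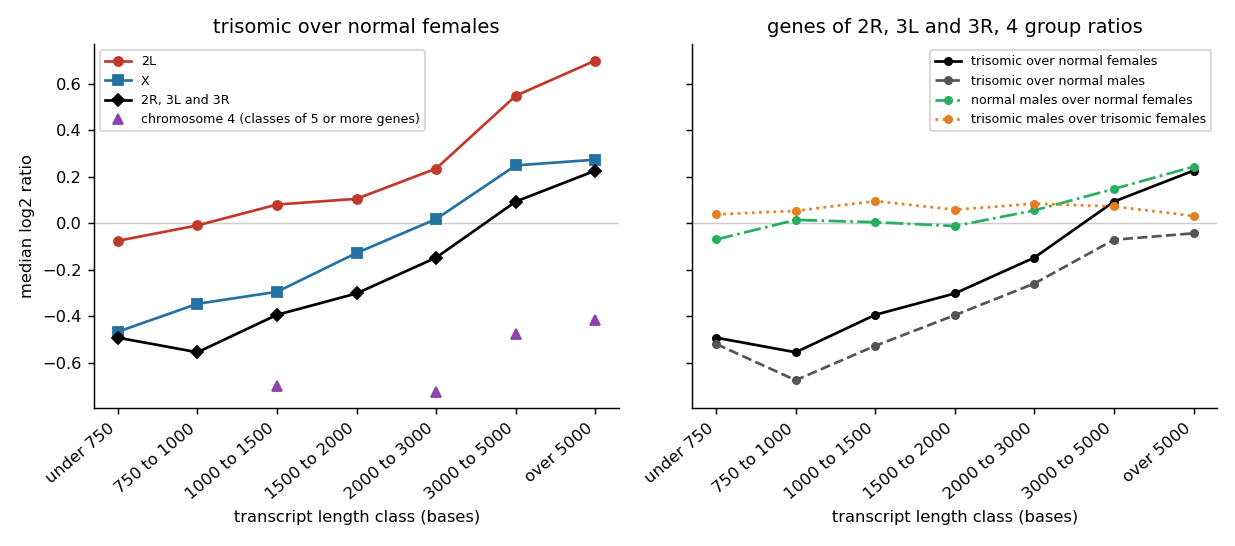
Median log2 ratio (y axis) by class of transcript length in bases (x axis). On the left, trisomic over normal females for genes of 2L, of X, of 2R, 3L and 3R together and of chromosome 4. On the right, 4 ratios between groups for genes of 2R, 3L and 3R. The 3 lines on the left rise with length, from -0.49 to 0.23 for 2R, 3L and 3R, while chromosome 4 lies below them.

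The excess of 2L held in every length class. The median of 2L genes less that of 2R, 3L and 3R genes of the same class was 0.42, 0.55, 0.47, 0.41, 0.38, 0.46 and 0.47 from the shortest class to the longest. Over all classes it was 0.44, against 0.39 without regard to length. A gene-dose ratio of 3 copies to 2 would be 0.58 on this scale. The excess varied with level, and was 0.47 with a minimum mean of 20 CPM. For genes averaging under 10 CPM in females, the medians were 0.14 on 2L and 0.04 on 2R, 3L and 3R. At 50 to 100 CPM they were 0.28 and -0.30, and at 100 to 1000 CPM 0.21 and -0.38. At 1000 CPM or more (45 genes over all arms) they were -0.01 and -0.29. On the deposited scale 382 of 1270 genes on 2L (30.1%) were higher by 1.5-fold or more and 46 (3.62%) were lower by as much. The median of X lay above that of 2R, 3L and 3R by 0.22 as a whole, but by 0.11 once genes were set against their own length class, X genes having longer transcripts (median 2224 bases).

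Chromosome 4, a small and largely heterochromatic chromosome, showed the opposite. Its 59 genes had a median change of -0.47, with 22 at least 1.5-fold lower and 2 higher (8 lower and 4 higher relative to 2R, 3L and 3R genes). Their transcripts were long (median 3776 bases), and against genes of the same length class the median was -0.51 (56 genes). Among them were pho, which encodes a DNA-binding protein of the Polycomb system (28.9 CPM in trisomic and 52 CPM in normal females), and MED26, a subunit of the Mediator complex (56.3 CPM in trisomic and 107 CPM in normal females). The 2 higher genes on the deposited scale were CG32017 and bt, the gene of the giant muscle protein projectin (398 CPM in trisomic and 217 CPM in normal females, 0.88).

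The genes next to the centromere of 2R, which neighbour 2L across the centromere, held the 3 longest runs of neighbours that moved together. Of the 30 compared genes nearest the centromere on 2R, 26 were at least 1.5-fold lower, and their median was -0.80, against -0.19 for the rest of the arm (without the 30 genes at each end). The first 7 genes, CG17683 to p120ctn, lay between -0.63 and -1.02. They hold the ribosomal protein gene RpL38 (267 CPM in trisomic and 542 CPM in normal females) and p120ctn, which encodes a catenin of cell junctions (62.8 CPM in trisomic and 118 CPM in normal females). After 1 gene at -0.43 came 9 in a row from CG17883 to Atf6, between -0.65 and -1.09. Among these, Nipped-B, the cohesin loader gene, had transcripts of 6625 bases and stood at 54.2 CPM in trisomic and 89.4 CPM in normal females, although long transcripts elsewhere were mostly higher. The stress regulator Atf6 stood at 36.1 CPM in trisomic and 75.7 CPM in normal females. The next block of 7, CG30440 to CG1298, holds the mitochondrial fission gene Fis1 and CG1298, which RefSeq names kune, a septate junction claudin gene (25.1 CPM in trisomic and 41.8 CPM in normal females).

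Against their length classes the 30 genes had a median of -0.60. In males their median was -0.89. The 30 genes nearest the centromere of the other large arms had medians of -0.11 on 2L (0.20 for the rest), -0.41 on 3L (-0.22 for the rest), -0.44 on 3R (-0.17 for the rest) and 0.06 on X (0.03 for the rest). On 2L none of the 30 was at least 1.5-fold lower. Genes that the files place in the unassembled heterochromatin of the arms were also lower, with medians of -0.62 on 2RHet (9 genes), -0.70 on 3LHet (10 genes), -0.85 on 3RHet (7 genes) and -0.66 on XHet (5 genes). The centromere ends were examined after the values had been seen, and the copy number of this region was not measured.

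**Figure D3:**
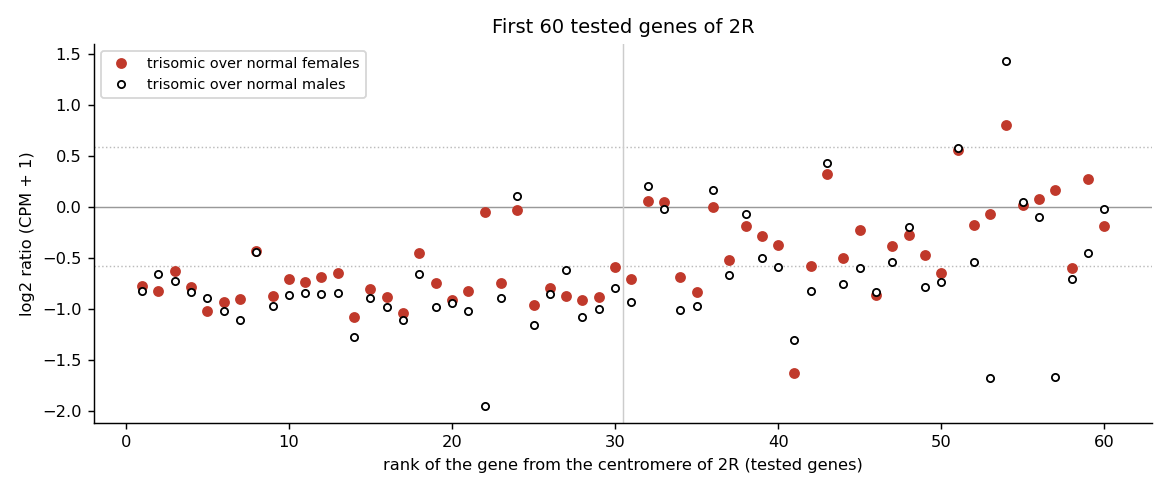
Log2 change (y axis) of the first 60 compared genes of 2R in order from the centromere (x axis, rank), filled points for trisomic over normal females and open points for trisomic over normal males. The vertical line follows the thirtieth gene and dotted lines mark 1.5-fold; most of the first 30 genes lie below -0.58.

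On 2L, 2R, 3L, 3R and chromosome 4, but not on X, neighbouring genes in places moved together. Over 6136 genes placed in order along the chromosomes there were 37 runs of at least 4 neighbours that differed at least 1.5-fold in 1 direction, the 3 near the 2R centromere included. Of these runs 15 were higher, 12 of them on 2L and 3 on 3R, and 22 were lower, 10 on 2R, 7 on 3R, 4 on 3L and 1 on chromosome 4. None lay on X. Single genes that differed as much were common: 30.1% of 2L genes were higher, and 24.7% on 2R, 23.5% on 3L and 21.8% on 3R were lower. How many runs such shares give without any grouping was not tested. Neighbours with almost equal values, such as muted and CG7071, counted as separate genes. On 2L the longest runs had 6 genes, as in that from sec71 to Sop2. It holds Sos, the Ras exchange factor gene (26.4 CPM in trisomic and 14.1 CPM in normal females), and Sop2, which encodes a subunit of the actin-nucleating Arp2/3 complex (156 CPM in trisomic and 45.3 CPM in normal females, 1.76).

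Runs of at least 3 neighbours that differed at least 2-fold numbered 13, 8 higher and 5 lower. The longest was a cluster of 5 genes on 3R, CG6296, CG6295, CG6283, CG6277 and CG6271, with changes between 1.45 and 4.16. CG6283 stood at 368 CPM in trisomic females and 33.8 CPM in normal females. Another was the mannosidase cluster on 2L, where CG9466 (LManV) stood at 502 CPM in trisomic females and 55.7 CPM in normal females and CG9468 (LManVI) at 546 CPM in trisomic and 89.5 CPM in normal females. The maltase genes LvpH and LvpL (Mal-A1 and Mal-A3) and CG8693 on 2R had changes of 1.43, 1.90 and 3.27, and the digestive protease genes Jon25Biii, Jon25Bii and Jon25Bi on 2L had 1.17, 1.54 and 1.88. The mannosidase, maltase and Jon25B clusters encode enzymes that break down sugars or protein.

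Runs of lower genes included families as well. On 3R the 4 neighbours CG10513, CG10514, CG11892 and CG11893 had changes between -1.91 and -2.40, and CG11892 stood at 58.7 CPM in trisomic females and 314 CPM in normal females. The trypsin genes alphaTry, epsilonTry and betaTry on 2R had changes of -1.53, -2.41 and -1.21. The glue genes Sgs8, Sgs7 and Sgs3 on 3L had -2.58, -1.87 and -1.64. Members of such families can be near copies of each other and the counting may divide their reads, so the value of 1 member is less certain than that of its cluster. The same holds for 55 of the compared genes that share all 4 group means with another gene.

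The cytosolic chaperonin folds actin, tubulin and other new proteins in a double ring. All 8 of its subunit genes were higher in trisomic females, 6 at least 1.5-fold, with a median of 0.75. They lie on 2L, 2R, 3R and X, and only 1 of the 8 is on 2L. Cctgamma stood at 55.7 CPM in trisomic and 23.8 CPM in normal females (1.19), Cct5 at 92.7 CPM in trisomic and 42.7 CPM in normal females (1.10), and the 2L gene CG5525 (CCT4) at 118 CPM in trisomic and 60.6 CPM in normal females (0.95). Their transcripts had 1851 to 2121 bases, and against genes of the same length the median was 1.05. Prefoldin, which hands new chains to the chaperonin, had all 6 subunit genes lower on the deposited scale (5 of 6 relative to 2R, 3L and 3R genes), with a median of -0.51. CG7770 (Pfdn6) stood at 16.9 CPM in trisomic females and 29.3 CPM in normal females. The prefoldin transcripts had 543 to 946 bases, and against their length classes the median was 0.02.

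In the early secretory pathway, subunits of 1 coat differed in direction. COPI coats bud from the Golgi, and of the 7 subunit genes 5 were at least 1.5-fold higher: beta'Cop on 2L (116 CPM in trisomic and 47.7 CPM in normal females, 1.26), betaCop on X (57.7 CPM in trisomic and 28.8 CPM in normal females), deltaCOP on X, gammaCop on 3R and alphaCop on 3L. The 2 smallest subunits stood apart from these, epsilonCOP at 0.22 and zetaCOP at -0.74. The zetaCOP gene, with a transcript of 694 bases, stood at 26.2 CPM in trisomic and 44.5 CPM in normal females. All 7 COPII coat and exit site genes examined were higher, 3 of them at least 1.5-fold, led by Tango1, which loads large cargo such as collagen (49.4 CPM in trisomic and 20.7 CPM in normal females, 1.21), and gho, a Sec24 gene (87.6 CPM in trisomic and 44.6 CPM in normal females). The small GTPases that recruit these coats were lower. The COPII GTPase gene sar1 stood at 109 CPM in trisomic females and 188 CPM in normal females (-0.78), and the COPI GTPase gene Arf79F stood at 241 CPM in trisomic females and 405 CPM in normal females (-0.74).

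Rab GTPases direct vesicles to their target membranes. Of the 13 Rab genes compared (29 found), 6 (46.2%, against 18.3% of all genes) were at least 1.5-fold lower. None was higher by as much (15.3% of all genes), and the median was -0.56. Rab7 of late endosomes led (129 CPM in trisomic and 274 CPM in normal females, -1.08), followed by Rab2, Rab39, Rab1 and Rab4. Over 17 Arf, Sar and Rab genes the median was -0.60, and -0.26 against their length classes, where transcripts ranged from 824 to 2397 bases. Only Rab35 and Rab6 were above 0.

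**Figure D4:**
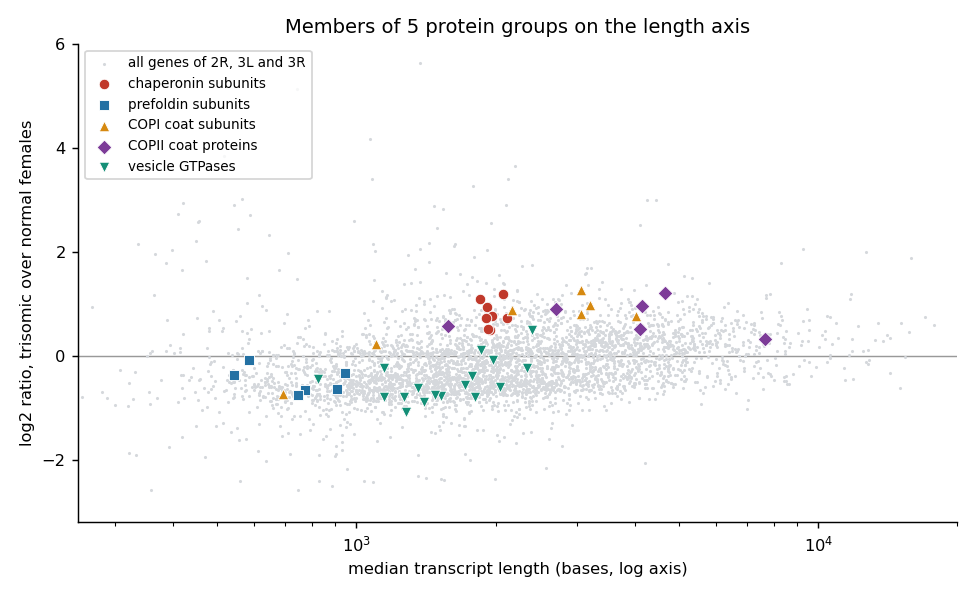
Log2 change in trisomic over normal females (y axis) against median transcript length in bases (x axis, log) for all compared genes of 2R, 3L and 3R (grey) and for members of 5 protein groups (coloured, all arms). The chaperonin subunits lie above genes of like length, the prefoldin subunits among them, and most vesicle GTPases below 0.

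The endoplasmic reticulum list as a whole had a median of -0.08, which became 0.12 relative to 2R, 3L and 3R genes. Of its 39 genes 3 (7.7%, against 18.3% of all genes) were at least 1.5-fold lower. At least 1.5-fold higher were 8 (20.5%, against 15.3% of all genes). The higher ones included folding factors of the lumen: CaBP1, a disulphide isomerase gene on 2L (142 CPM in trisomic and 43.6 CPM in normal females, 1.67), Gp93, the Hsp90 family member (232 CPM in trisomic and 89.2 CPM in normal females, 1.37), and the calreticulin gene Crc (507 CPM in trisomic and 291 CPM in normal females, 0.80). Other genes of folding in the lumen lay below 0, with wbl at -0.66, prtp at -0.54 and Ero1L at -0.50. The short signal peptidase gene Spase12 was lower (18.2 CPM in trisomic and 32.6 CPM in normal females). The COPI, COPII and Golgi list had 12 of 37 genes (32.4%, against 15.3% of all genes) higher and 8 (21.6%, against 18.3%) lower.

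Of 24 genes for integrins, their linkers and the matrix, 9 (37.5%) were higher by 1.5-fold or more and none lower, against 15.3% higher among all genes. The median of the 24 was 0.43 and 15 of them lay above 0. Septate junction genes, another adhesion list, had 5 of 25 (20%) higher, 4 (16%, against 18.3% of all genes) lower and a median of -0.16. The integrin ligand gene Tiggrin (Tig, 2L) stood at 262 CPM in trisomic females and 54.5 CPM in normal females (2.25), papilin (Ppn, 3R) at 129 CPM in trisomic and 30.3 CPM in normal females (2.05), and the growth factor receptor gene Pvr (2L) at 78.0 CPM in trisomic and 28.2 CPM in normal females (1.43). BM-40-SPARC, a collagen-binding protein gene with a short transcript of 1137 bases, stood at 127 CPM in trisomic females and 53.0 CPM in normal females. Tig, Ppn and BM-40-SPARC are made by haemocytes and fat body. The haemocyte markers vkg and Cg25C, both on 2L, were higher as well (178 CPM in trisomic and 36.9 CPM in normal females for vkg). They had the largest changes of the 7 haemocyte markers found, of which 6 were higher and crq was at -0.07. The median transcript of the integrin and matrix list had 3940 bases. Relative to 2R, 3L and 3R genes its median was 0.63, and relative to those of the same length class 0.34. The part of haemocyte number was not tested.

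In the JAK-STAT group, 5 of 12 genes compared (24 found) were at least 1.5-fold higher and none lower, with a median of 0.52. This was 41.7%, against 15.3% of all genes and 30.1% of genes on 2L. Of the 12, 7 lie on 2L, and without these the median was 0.35 and only 1 of 5 genes was at least 1.5-fold higher. The thioester protein gene TepI, an opsonin gene of the immune system on 2L, stood at 31.2 CPM in trisomic females and 8.29 CPM in normal females (1.79). The pathway's feedback inhibitor Socs36E, also on 2L, stood at 18.3 CPM in trisomic and 10.2 CPM in normal females. The stress-induced TotA, on 3R, stood at 490 CPM in trisomic and 242 CPM in normal females. The transcription factor gene Stat92E itself was on the lower side (124 CPM in trisomic and 165 CPM in normal females, -0.41). In the Toll and IMD list 4 of 29 genes (13.8%) were at least 1.5-fold higher and 7 (24.1%, against 18.3% of all genes) lower, with a median of -0.18. The 4 were nec, spirit, grass and cact. Relative to 2R, 3L and 3R genes 7 were higher and 2 lower, with a median of 0.02.

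Among metabolic lists, fatty acid breakdown and peroxisomes had the highest median, 0.59. Of the 28 genes of this list, 14 (50%, against 15.3% of all genes and 30.1% of 2L genes) were at least 1.5-fold higher. Lower by as much were 3 (10.7%, against 18.3% of all genes). The median of the list without its 9 genes on 2L was 0.02, with 7 of 19 higher and 2 lower. On 2L were the acyl-CoA synthetase gene bgm (62.2 CPM in trisomic and 19.1 CPM in normal females, 1.65), the carnitine carrier gene colt (44.6 CPM in trisomic and 18.0 CPM in normal females, 1.26) and CG4389 (Mtpalpha, of the trifunctional protein, 181 CPM in trisomic and 80.4 CPM in normal females, 1.16). Off 2L, CG3415 (Mfe2, of peroxisomal oxidation) had 1.15 and CG6543 (Echs1, enoyl-CoA hydratase) had 1.06. The rate-controlling carnitine transferase whd, on 2R, was the lowest of the list, with 81.9 CPM in trisomic females and 160 CPM in normal females (-0.95). The colt and whd products act in the same uptake route into mitochondria.

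Amino acid breakdown and one-carbon metabolism had a median of 0.41, with 12 of 32 genes at least 1.5-fold higher and 5 lower. CG6188 (Gnmt), which uses up methyl groups by methylating glycine, stood at 25.5 CPM in trisomic females and 3.38 CPM in normal females (2.60). The folate enzyme gene pug stood at 118 CPM in trisomic and 39.3 CPM in normal females (1.57), and CG1753 (Cbs, the first step of transsulphuration) at 23.0 CPM in trisomic and 8.79 CPM in normal females (1.29). Odc1, the ornithine decarboxylase of polyamine synthesis, was lower, at 30.6 CPM in trisomic and 80.7 CPM in normal females (-1.37), while arg, the arginase that makes ornithine, was higher (1.21). Gnmt, pug and Cbs all handle 1-carbon units or their products, and all 3 lie off 2L.

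The 10 pentose phosphate and NADPH enzymes, none of them on 2L, had a median of 0.42. None was at least 1.5-fold lower, against 18.3% of all genes. At least 1.5-fold higher were 4 (40%, against 15.3% of all genes). They were Pgd (41.8 CPM in trisomic and 18.1 CPM in normal females, 1.16), Men, a malic enzyme gene (187 CPM in trisomic and 92.8 CPM in normal females, 1.0), Mdh (1.0) and CG30410 (Rpi, 0.92). Sugar storage genes at the extremes were GlyP, glycogen phosphorylase on 2L (533 CPM in trisomic and 185 CPM in normal females, 1.52), Tps1, trehalose synthase on 2L (102 CPM in trisomic and 47.5 CPM in normal females, 1.09), and tobi, an insulin-responsive glucosidase gene on 3R (20.3 CPM in trisomic and 1.87 CPM in normal females, 2.89). That list of 24 had 5 (20.8%) higher, 3 (12.5%, against 18.3% of all genes) lower and a median of 0.10. The regulator gene sug was lowest, at 25.8 CPM in trisomic and 50.7 CPM in normal females (-0.95).

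In purine synthesis, ade2 (76.6 CPM in trisomic and 28.2 CPM in normal females, 1.41) and ade3 (91.1 CPM in trisomic and 35.6 CPM in normal females, 1.33), both on 2L, were higher. The pyrimidine breakdown gene su(r), on X, stood at 21.8 CPM in trisomic and 5.34 CPM in normal females (1.85). The list of 32 as a whole had 6 (18.8%, against 15.3% of all genes) higher, 3 (9.4%, against 18.3%) lower and a median of 0.03.

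Chitin and peritrophic matrix genes spread widely, with 15 of 40 at least 1.5-fold higher, 6 lower and a median of 0.31. Chitin is the polymer of the cuticle and of the gut lining. The chitinase gene Cht4 stood at 17.7 CPM in trisomic females and 1.53 CPM in normal females (2.89) and Cht2 at 25.2 CPM in trisomic and 8.93 CPM in normal females (1.40). The chitin-binding protein gene obst-E, on 2L, stood at 55.0 CPM in trisomic and 17.1 CPM in normal females, and mmy, on 2L, which makes the chitin precursor UDP-N-acetylglucosamine, at 81.2 CPM in trisomic and 30.5 CPM in normal females (1.38). Genes of the same list that were lower were Cht11, Cda9, Muc68E, Muc18B and obst-F, between -0.85 and -0.95, and Peritrophin-15b at -0.59. Both directions were thus represented among chitinases.

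Among lysosomal genes 6 of 30 (20%) were at least 1.5-fold higher and 7 (23.3%) lower, shares near those of all genes (15.3% and 18.3%), with a median of -0.36. Relative to 2R, 3L and 3R genes 7 were higher and 5 lower. The 3 highest encode sugar-cleaving hydrolases: Hexo2 (47.9 CPM in trisomic and 12.8 CPM in normal females, 1.83), Gal (88.3 CPM in trisomic and 32.9 CPM in normal females, 1.40) and Hexo1 (56.6 CPM in trisomic and 21.1 CPM in normal females, 1.38). The hexosaminidase gene fdl was at -0.09, and the other 3 higher genes were the peptidase genes CG17134 (1.32), CG4847 (0.88) and CG33128 (0.75). Lower were the sterol-binding Npc2 genes (Npc2b, Npc2d, Npc2f and Npc2g, -0.60 to -1.0), CG10157 (GILT2, a thiol reductase gene, 15.3 CPM in trisomic and 44.3 CPM in normal females, -1.48) and CG10992 (CtsB, cathepsin B, 366 CPM in trisomic and 654 CPM in normal females, -0.83). The Npc2 and GILT2 transcripts are short (626 to 822 bases) and those of Hexo2, Gal and Hexo1 have 2091 to 2342 bases.

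After the Rab genes, the lowest medians among lists with at least 5 genes were those of tetraspanins, carboxylesterases (-0.41) and ubiquitin conjugation. Of 14 carboxylesterase genes 4 (28.6%, against 18.3% of all genes) were at least 1.5-fold lower and 1 higher. Relative to 2R, 3L and 3R genes 1 was lower and 1 higher. Of 24 tetraspanin genes 6 (25%, against 18.3% of all genes) were at least 1.5-fold lower and none higher, with a median of -0.47. Relative to 2R, 3L and 3R genes 2 were lower and none higher. Tsp42Er was lowest (12.3 CPM in trisomic and 39.4 CPM in normal females, -1.60). Of 46 genes of ubiquitin and SUMO conjugation, 14 (30.4%, against 18.3% of all genes) were at least 1.5-fold lower and 2 higher, with a median of -0.39. Relative to 2R, 3L and 3R genes the counts turned to 3 lower and 6 higher. The conjugating enzyme gene ben (98.2 CPM in trisomic and 169 CPM in normal females, -0.78) and the ring-finger gene Roc1a (-0.74) were lower. The 2 higher genes were large ligase genes on 2L, Su(dx) (45.5 CPM in trisomic and 24.6 CPM in normal females) and poe (215 CPM in trisomic and 123 CPM in normal females), the second with a transcript of 16187 bases. Against their length classes the medians of the tetraspanin and ubiquitin lists were -0.14 and -0.16.

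RNA polymerase II and the general factors had 7 of 27 genes (25.9%, against 18.3% of all genes) at least 1.5-fold lower and 2 higher, with a median of -0.29. Relative to 2R, 3L and 3R genes 1 was lower and 3 higher, with a median of -0.09. The higher ones were TfIIFalpha (18.0 CPM in trisomic and 8.35 CPM in normal females, 1.03) and Taf1 (0.62). TfIIFbeta, which binds TfIIFalpha, stood at 7.13 CPM in trisomic and 12.7 CPM in normal females (-0.75), and TfIIA-S, the small partner of TfIIA-L (0.38), at 22.8 CPM in trisomic and 42.2 CPM in normal females (-0.86). Ribosomal protein genes off 2L had medians of -0.58 under 750 bases (37 genes, 1 above 0), -0.34 at 750 to 1000 bases (17 genes, none above 0) and 0.30 over 1000 bases (11 genes, 7 above 0). Relative to 2R, 3L and 3R genes these medians were -0.39, -0.15 and 0.50. The genes were picked by name, and the 17 include RpLP0-like (-0.11), a gene also listed under nucleolus and ribosome assembly. The medians of this set of genes thus differed in sign between length classes.

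Most signalling lists had medians near the all-gene median of -0.06, and that of Hippo lay further above it. Over all genes 18.3% were at least 1.5-fold lower and 15.3% higher. In these lists the shares ran from 5.9% (BMP and activin) to 22.2% (Notch) lower. For higher genes they ran from 0% (JNK) to 23.8% (EGFR and Ras). Medians were -0.12 for Notch (4 of 18 at least 1.5-fold lower, 2 higher), 0.01 for Wnt and Hedgehog (3 of 27 lower, 2 higher, and 1 lower and 5 higher relative to 2R, 3L and 3R genes), -0.06 for BMP and activin (1 of 17 lower, 2 higher), 0.07 for EGFR and Ras (2 of 21 lower, 5 higher), 0.07 for JNK (2 of 15 lower and none higher, and none lower and 2 higher relative to those arms) and 0.22 for Hippo (1 of 16 lower, 3 higher), and those of Notch (then 2 lower, 4 higher) and of BMP and activin were above 0 relative to 2R, 3L and 3R genes. In EGFR signalling the feedback inhibitor kek1, on 2L, stood at 16.4 CPM in trisomic females and 4.39 CPM in normal females (1.69), the receptor Egfr, on 2R, at 40.7 CPM in trisomic and 24.6 CPM in normal females (0.70), and the adaptor drk at 65.9 CPM in trisomic and 105 CPM in normal females (-0.66). None of the 10 genes for hypoxia and AMPK differed 1.5-fold in either direction. The plot of gene lists gives every member.

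**Figure D5:**
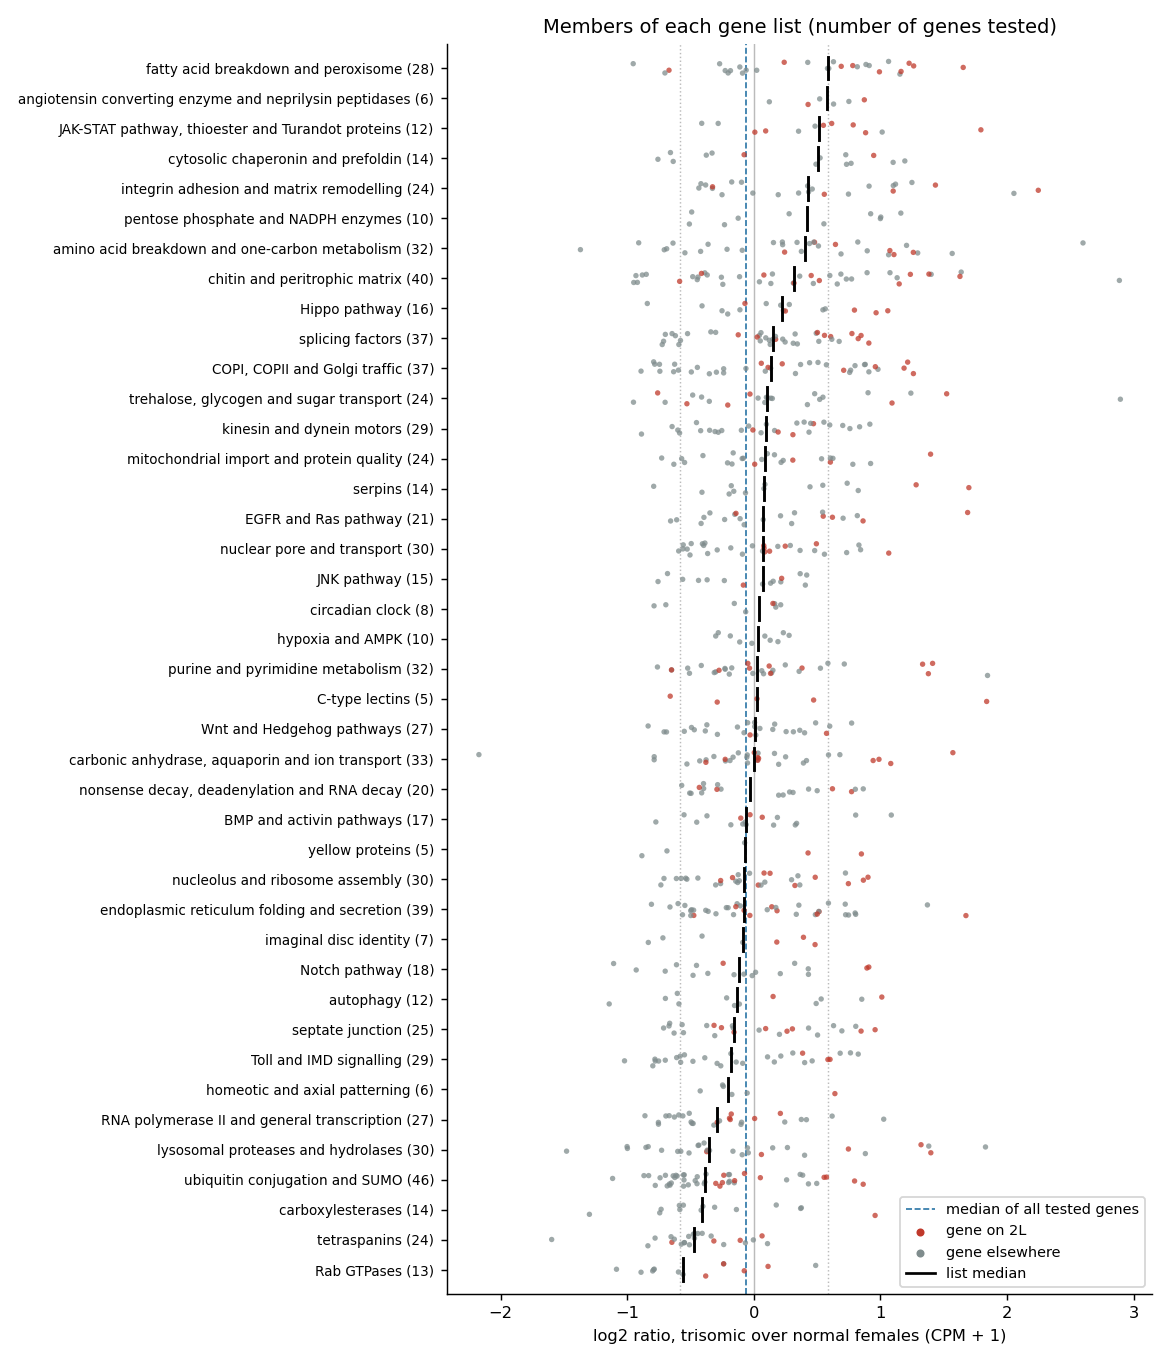
Log2 change in trisomic over normal females (x axis) of each compared gene in lists with at least 5 genes, ordered by median (black bars), with 2L genes in red and others in grey. Dotted lines mark 1.5-fold and the dashed line the median of all compared genes, -0.06; fatty acid breakdown is highest at 0.59 and Rab GTPases lowest at -0.56.

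Transcript models of a gene mostly gave the same change. Of 2543 genes with at least 2 models that passed the minimum, none had 1 model at least 1.5-fold higher and another at least 1.5-fold lower, 13 had models whose changes differed by 1.5-fold or more, and the median gap was 0.01. Models share reads, so this is a property of the counting as well. The widest gap was in vir-1, a gene induced by viral infection, on 2L. One of its 4 models stood at 70.1 CPM in trisomic females and 18.2 CPM in normal females (1.89), while another stood at 231 CPM in trisomic females and 292 CPM in normal females (-0.34). In Pde1c, a phosphodiesterase gene, 5 of 6 models had changes of 0.89 to 0.92 and the remaining one had -0.29. In sea, the mitochondrial citrate carrier gene, 1 model stood at 462 CPM in trisomic and 649 CPM in normal females (-0.49) and the other 3 had about 0.42. The mean over models hides these differences in vir-1 and Pde1c, whose gene values were 0.01 and 0.06.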

How the data were processed

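The authors deposited 1 mean CPM per group for each transcript model, per the file headers, in a table of 19047 autosomal and one of 3691 X models, whose columns sum to 1000000 over both. The submitters' processing notes list TopHat, HTSeq and the dm3 build without roles, and library depth is unknown. CPM are not scaled by transcript length. Models were averaged per gene. Log2 changes used a pseudocount of 1 and a minimum mean of 10 CPM over 4 groups, and 1.5-fold and 2-fold sizes stand in for tests, which group means do not allow. Names, gene order and transcript length (median over transcripts) came from RefSeq Release 6 and the Ensembl annotation of BDGP6, another build than dm3, and 6201 of 6308 genes (98.3%) were matched. Steps were tested on simulated data.

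The comparison, the 45 gene lists and the tissue markers were chosen with earlier results of these data known, and wrongly assigned symbols were removed from several lists after their values had been seen. The length classes, the ends of arms and the 5 protein groups were chosen after the values had been seen. Named genes are the 12 largest increases and decreases, the 10 largest gains and losses of CPM, the 4 largest changes per arm and per list, members of the longest runs and the 6 genes with the widest gap between models; other members of lists, of 2-fold runs and of the 5 groups were named after their values had been seen. Python 3.11.15, numpy 2.4.6, pandas 2.3.3 and matplotlib 3.10.9 were used.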

Additional observations from a re-analysis of the deposited data

Results flagged for a closer look

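In 8 genes with at least 10 CPM in a female group, the change was at least 1.5-fold in 1 direction in females and at least 1.5-fold in the other in males; the difference between the sexes was not tested. Higher in trisomic females and lower in trisomic males were the dosage compensation RNA roX1 (log2 changes of 0.73 in females and -0.82 in males), yellow-c (0.85 and -0.82), CG9850, which RefSeq names sona (0.86 and -0.66), and dro5, an antimicrobial peptide gene of the drosomycin family (1.18 and -0.72). In females roX1 stood at 22.4 CPM in trisomics and 13.1 CPM in normals, and in males at 285 CPM in trisomics and 506 CPM in normals. Lower in trisomic females and higher in trisomic males were CG14205 (-0.92 and 0.73), the gut proteases Jon99Fi (-0.77 and 0.65) and Jon99Fii (-0.67 and 0.75), which may share reads, and the urate oxidase gene Uro (-0.65 and 0.67).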

How the results depend on the processing

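Settings are read against the values of the report. Relative to 2R, 3L and 3R genes, genes at least 1.5-fold lower fell to 474, those at least 2-fold higher numbered 566 and those at least 2-fold lower 101. With a pseudocount of 5, 123 genes were at least 2-fold lower and the change of the longest less that of the shortest transcript class was 0.60, against 0.72. With no minimum level, where many genes lie near the commonest low values, 2001 genes were at least 1.5-fold higher and 2020 lower, 852 at least 2-fold higher and 489 lower, 85.3% of changes had the same sign in males (97.8% with the minimum), the 2L excess was 0.20 (0.39) and the length difference 0.24. Runs of at least 3 genes at 2-fold numbered 13, against 37 of at least 4 at 1.5-fold. For 294 named genes, 2764 of 2864 values under other settings kept their direction and side of 1.5-fold, or moved by under 0.1 on the log2 scale; 61 fell below 1.5-fold and none of those past it changed sign. Of 447 values for 45 gene lists, 92 moved, among them those of all 45 lists relative to 2R, 3L and 3R genes, a shift of 0.20 in every list. No paired analysis was possible because the columns are group means, and replicates could not be left out for the same reason. The comparison of promoter motifs was not run.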
